A study of Mus musculus with 14 samples.

Results

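H3K4me3 was followed through called islands, the stretches of chromatin enriched for this mark, in 81K1 mouse embryonic stem cells with and without Smarcb1 knockdown (kd). The members are all islands on chromosomes 1 to 19 and X in the authors' H3K4me3 lists, 25873 in control and 33128 after kd, 59001 of the 352805 regions in the 10 lists of the series. 81K1 is a line of the OG2 background that carries, at the Rosa26 locus, a doxycycline-inducible shRNA against Smarcb1, a core subunit of the BAF chromatin remodelling complex. Control cells carry the same cassette and were left untreated; kd cells received 1 µg/ml doxycycline daily and were fixed after 72 h. There was 1 library per antibody and condition from a single engineered line, so an effect of doxycycline itself and of the line cannot be told apart from that of the kd, and no test between conditions was possible. Shares carry 95% Wilson intervals, which describe counting error alone. The lists carry no read counts, the depth of each library is therefore unknown, and a missing island is a missing call and not a measured loss of the mark.

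H3K4me3 is placed by the SET1 and MLL methyltransferases around transcription start sites (TSS), mainly where the DNA is rich in CpG dinucleotides. In embryonic stem cells many promoters of developmental regulators carry it together with H3K27me3, the mark that PRC2 with its catalytic subunit Ezh2 deposits, a state called bivalent. Broad H3K4me3 stretches are known from genes of cell identity.

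As a check of the cell type, promoter islands were present in both lists at 18 of 20 pluripotency genes, Pou5f1, Nanog and Sox2 among them. Nr5a2 and Esrrb had none at the 5' end of the gene record and had islands in both lists when the TSS of every transcript was counted. Of 10 fibroblast marker genes none held a control island at the 5' end of the gene record, and 1 (Pdgfra) did when every transcript was counted. Other markers were not free of the mark. Of 10 neuronal and glial genes 5 had an island in both lists. Of 14 hepatic and epidermal genes 1 had one in both lists and 1 in control alone. The Smarcb1 promoter itself was marked in both lists, with an island of 4000 bp in control and 2600 bp after kd. An shRNA acts on the transcript, so this says nothing about the efficiency of the kd. Islands on each chromosome were 1.21 to 1.33 times as many after kd as in control.

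The promoters on which the comparison turned are shown first, with CG dinucleotides in capitals, as the 250 bases before the TSS on the strand of the gene (GRCm38, RefSeq sequence). The motif CG reads the same on both strands and occurred in 92.5% of all protein-coding promoters of this length. Among genes whose promoter had an island after kd and none in control, those with the smallest p-values were B3gnt9 (chr8:105255154-105255403, minus strand), which encodes a glycosyltransferase, Gm15091 (chrX:149941405-149941654, plus strand), Ltb4r2 (chr14:55761178-55761427, plus strand), a leukotriene B4 receptor, and Gadd45g (chr13:51846428-51846677, plus strand), a stress-response gene. Cdx1 ranked between Gm15091 and Ltb4r2 and is not printed.
B3gnt9: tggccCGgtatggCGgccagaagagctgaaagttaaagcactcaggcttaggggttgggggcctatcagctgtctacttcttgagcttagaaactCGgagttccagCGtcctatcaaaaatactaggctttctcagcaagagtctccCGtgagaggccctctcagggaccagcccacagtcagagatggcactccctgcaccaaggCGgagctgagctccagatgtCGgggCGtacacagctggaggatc
Gm15091: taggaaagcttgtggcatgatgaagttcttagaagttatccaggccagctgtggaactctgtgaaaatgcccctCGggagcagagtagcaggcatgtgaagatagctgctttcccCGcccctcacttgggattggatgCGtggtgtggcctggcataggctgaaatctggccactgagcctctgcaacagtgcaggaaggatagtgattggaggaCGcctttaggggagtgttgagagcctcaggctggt
Ltb4r2: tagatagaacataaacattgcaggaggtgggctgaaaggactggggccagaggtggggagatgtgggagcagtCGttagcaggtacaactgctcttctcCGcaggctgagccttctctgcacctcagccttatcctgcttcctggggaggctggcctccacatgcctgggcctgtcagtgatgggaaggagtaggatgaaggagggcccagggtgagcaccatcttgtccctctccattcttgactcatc
Gadd45g: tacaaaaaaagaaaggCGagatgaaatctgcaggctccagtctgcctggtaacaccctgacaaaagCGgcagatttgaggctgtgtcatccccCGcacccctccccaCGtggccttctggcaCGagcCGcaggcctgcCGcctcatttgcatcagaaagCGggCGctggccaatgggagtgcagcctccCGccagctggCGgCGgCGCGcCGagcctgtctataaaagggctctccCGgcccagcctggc
The leading genes with an island in control and none after kd were Gm15319 (chr8:20363211-20363460, minus strand), Zfp980 (chr4:145670435-145670684, plus strand), which encodes a zinc finger protein, and Csrnp3 (chr2:65845517-65845766, plus strand), a nuclear protein gene.
Gm15319: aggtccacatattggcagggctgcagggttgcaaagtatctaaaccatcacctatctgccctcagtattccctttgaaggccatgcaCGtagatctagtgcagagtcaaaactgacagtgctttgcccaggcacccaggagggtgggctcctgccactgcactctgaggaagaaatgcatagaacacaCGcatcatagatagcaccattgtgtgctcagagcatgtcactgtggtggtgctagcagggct
Zfp980: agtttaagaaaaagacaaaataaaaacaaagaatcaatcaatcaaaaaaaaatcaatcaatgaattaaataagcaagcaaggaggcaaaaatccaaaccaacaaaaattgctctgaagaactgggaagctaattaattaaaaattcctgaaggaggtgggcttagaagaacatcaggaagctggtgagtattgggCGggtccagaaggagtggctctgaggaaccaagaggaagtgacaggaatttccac
Csrnp3: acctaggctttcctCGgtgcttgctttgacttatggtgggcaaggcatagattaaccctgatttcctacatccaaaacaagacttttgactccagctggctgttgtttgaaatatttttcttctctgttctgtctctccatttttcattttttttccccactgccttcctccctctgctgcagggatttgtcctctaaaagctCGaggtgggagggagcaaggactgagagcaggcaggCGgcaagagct
Pou5f1 (chr17:35505768-35506017, plus strand), which encodes the pluripotency factor Oct4, is given as a promoter marked in both lists.
Pou5f1: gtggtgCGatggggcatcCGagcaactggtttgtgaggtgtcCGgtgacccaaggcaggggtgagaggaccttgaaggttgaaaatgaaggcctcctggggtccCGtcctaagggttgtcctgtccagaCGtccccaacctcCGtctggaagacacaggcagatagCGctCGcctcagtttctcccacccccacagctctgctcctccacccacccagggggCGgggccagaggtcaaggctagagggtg
These windows held 8 CG in B3gnt9, 4 in Gm15091, 2 in Ltb4r2 and 16 in Gadd45g, against 2 in Gm15319, 1 in Zfp980, 3 in Csrnp3 and 9 in Pou5f1.

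Islands were first sorted by location. After kd the list grew at every location, least around the TSS. Islands that overlapped a window of 1 kb either side of an annotated TSS numbered 12091 in control and 13413 after kd, which was 46.7% (46.1 to 47.3%) and 40.5% (40.0 to 41.0%) of the lists. Islands in gene bodies numbered 5042 and 7271. Intergenic islands numbered 8740 and 12444, 33.8% (33.2 to 34.4%) and 37.6% (37.0 to 38.1%) of the lists. The covered length went the other way at the TSS, from 45.16 Mb in control to 42.57 Mb after kd, while it was 1.51 times as large in gene bodies (18.79 and 28.40 Mb) and 1.71 times as large between genes (36.28 and 62.01 Mb).

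Most control islands were found again after kd. Over all locations, 8.09% of control islands overlapped no kd island and 29.7% of kd islands overlapped no control island. At the TSS the control list had 241 islands of its own and the kd list 1481 (log2 ratio 2.62), so that kd-only islands made up 86.0% (84.3 to 87.6%) of both. The log2 ratio was 1.99 in gene bodies, with 778 control-only and 3089 kd-only islands, and 2.29 between genes, with 1073 and 5253. The islands of a single list were weak calls. At the TSS their median -log10 p, as deposited by the authors, was 16.2 for control-only and 22.1 for kd-only islands, against 116.9 in control and 184.7 after kd for islands present in both. When the kd list was shortened to the length of the control list by p-value, the TSS held 434 control-only and 921 kd-only islands. Gene bodies (1169 and 1286) and intergenic sequence (1890 and 1990) held nearly as many of each.

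**Figure D1:**
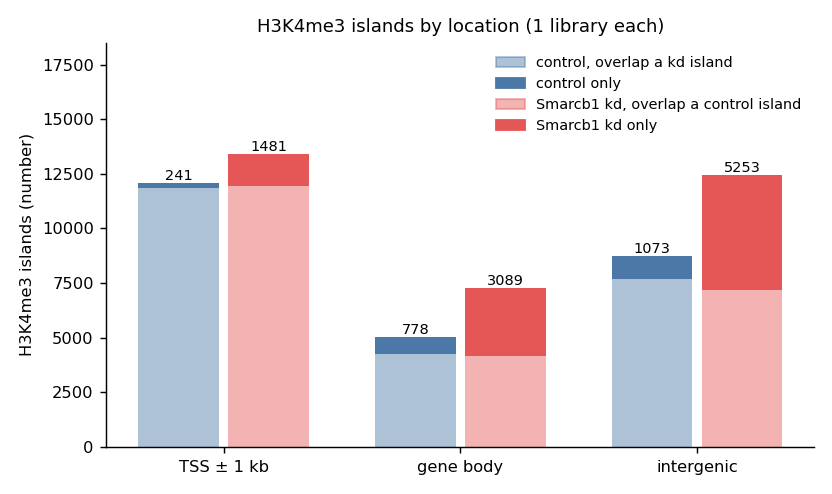
Number of H3K4me3 islands (y axis) by location and condition (1 library each), with pale bars for islands that overlap an island of the other condition and dark bars, with their number above, for islands of one list alone. The dark kd segments, 1481 at the TSS, 3089 in gene bodies and 5253 between genes, exceed the dark control segments of 241, 778 and 1073.

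Intergenic islands lay mostly in repeat-masked sequence, the lower-case bases of the reference that mark repeats without telling their kind. At least 50% of the bases were repeat-masked in 92.5% of the intergenic control islands and 91.5% of the kd islands, against 3.83% and 5.49% at the TSS. Of all bases other than N on chromosomes 1 to 19 and X, 34.3% were masked. The intergenic islands also differed in what else was called there. In the same condition, 83.1% of the repeat-masked intergenic control islands and 91.1% of the kd islands overlapped an H3K27ac island, while H3K27me3 islands overlapped 1.42% of those after kd. Of the other intergenic islands, 45.2% and 43.0% overlapped H3K27me3. H3K27ac shares its input libraries with H3K4me3, and H3K27me3 does not.

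Among intergenic islands of one list alone, the 5 of smallest p-value in each list were mixed in kind. The leading kd-only islands were chr9:123923001-123926200, 3200 bp wide at 42492 bp from the nearest TSS (Ccr1), and chr4:155150201-155151200, 1000 bp wide at 63624 bp from the TSS of Morn1, with 38.7% and 2.30% repeat-masked bases. Both overlapped a Smarca4 and an Ezh2 peak after kd. The leading control-only island, chr10:3109401-3117200, was 7800 bp wide with 88.8% repeat-masked bases and overlapped no region of the other antibodies in control. Of the remaining leading islands, the fourth and the fifth kd-only ones were at least 99.0% repeat-masked without a Smarca4 or Ezh2 peak, and the other control-only ones were 48.5 to 57.4% repeat-masked, 1 of them with a Smarca4 peak.

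Width was compared in 21451 matched islands, pairs of 1 control and 1 kd island that overlap each other and no other island. Around the TSS islands were narrower after kd, and in repeat-masked sequence they were wider. At the TSS (11517 pairs) control islands had a median of 2800 bp and kd islands one of 2600 bp, and the median log2 ratio of kd to control was -0.15. Of these islands 59.5% were narrower and 29.2% wider after kd. At least 1.5 times narrower were 18.3% (17.6 to 19.1%), against 13.6% of all matched islands, and at least 1.5 times wider were 7.10% (6.65 to 7.59%), against 21.1% of all.

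Between genes (6254 pairs) the median went from 4000 bp in control to 6400 bp with kd, with a median log2 ratio of 0.32. At least 1.5 times wider were 41.6% (40.3 to 42.8%) and at least 1.5 times narrower 6.28% (5.71 to 6.91%). Islands of 6 to 7 kb made up 21.9% of the intergenic pairs in control and 48.1% after kd, and 6400 bp was the most frequent intergenic width after kd, against 2200 bp in control. This widening was seen in the repeat-masked islands. Their median log2 ratio was 0.39 between genes and 0.40 in gene bodies, while the other islands had -0.03 between genes and -0.14 in gene bodies, close to the -0.15 of the other islands at the TSS. Of the 2599 intergenic pairs past the fold of 1.5 for widening, 1704 were at least 2 times wider. A required overlap of 50% of both islands, which by construction drops pairs that differ more than 2-fold in width, left 1140.

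**Figure D2:**
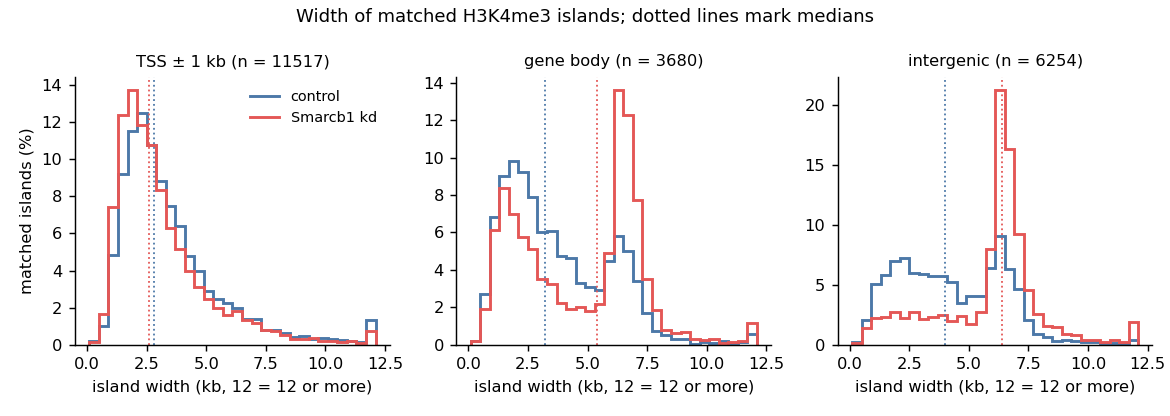
Distribution of the widths of matched H3K4me3 islands (x axis, kb, the last bin holding 12 kb and more; y axis, percent of the pairs) in control (blue) and after Smarcb1 kd (red), by location, with dotted lines at the medians. At the TSS the red curve lies slightly to the left (medians 2800 and 2600 bp), and between genes a peak at 6 to 7 kb holds 21.9% of the control and 48.1% of the kd islands.

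Islands of the other histone marks were matched in the same way. H3K27ac islands at the TSS had a median log2 width ratio of -0.04 (3112 pairs) and intergenic ones 0.00 (14396 pairs). H3K27me3 islands had -0.11 at the TSS (4978 pairs) and -0.04 between genes (2245 pairs).

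The matched promoter islands with the largest change in bp were chosen by rule. Of the 10 that widened most, Homer3, a synaptic scaffold gene, led with 4800 bp in control and 16400 bp after kd, followed by Prr12 with 3800 and 13000 bp and Bcar1, an adhesion adaptor gene, with 2200 and 11000 bp. Sesn2, a stress-inducible metabolic regulator, had 9200 and 17000 bp. Of the 10 that narrowed most, 3 lay in the zinc finger cluster of chromosome 4 described below. Of the others, the island at Cog4 and Sf3b3 went from 33400 to 11000 bp, that at Dnaja2, a chaperone gene, from 23400 to 6200 bp, and that at Enah, an actin regulator, from 26000 to 12600 bp. Klf5, a pluripotency-associated factor, was among them with 22400 and 10400 bp.

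Promoters were then compared gene by gene, with a promoter taken as 1 kb either side of the 5' end of each of 21755 protein-coding genes. An island was present in both lists (kept) at 12238 genes or 56.3%, in kd alone (gained) at 1006 genes, in control alone (lost) at 171 genes, and in neither (without) at 8340 genes. Gained and lost promoters were thus 4.62% and 0.786% of all, and 1.38% of the promoters with a control island lost it. With lists of equal length, 709 genes gained and 279 lost an island.

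At kept promoters the island was narrower after kd more often than wider. Their median went from 3000 bp in control to 2800 bp with kd, the median log2 ratio was -0.16, and 60.8% of the islands were narrower and 28.5% wider. Past the fold of 1.5, 2320 of the 12238 were narrower and 809 (6.61%) wider. Counted in bp, the downstream side, the longer one in both lists, gave way more than the upstream side. In the 11708 genes whose TSS lay inside the island in both lists, the downstream reach had a median of 1861 bp in control against 1637 bp with kd, and the upstream reach 1029 against 926 bp, with median differences per gene of -200 and 0 bp. Broad islands had the lower ratios of kd to control, that is, the stronger narrowing. Kept islands with a mean width of at least 10 kb (272 genes) had a median log2 ratio of -0.24, those of 5 to 10 kb (1942 genes) -0.17 and those under 5 kb (10024 genes) -0.15. Promoter islands of at least 10 kb numbered 429 genes in control and 248 after kd. The deposited p-values did not move in parallel with the widths, as the median -log10 p at kept promoters was 131.5 in control and 204.1 after kd, a value that is not scaled between libraries.

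**Figure D3:**
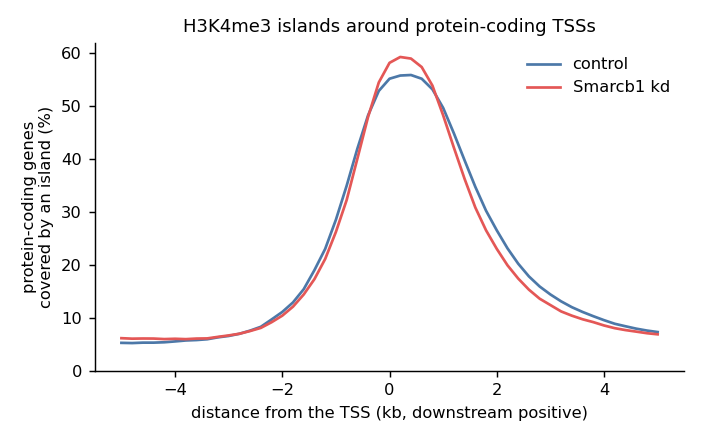
Percent of protein-coding genes (y axis) whose position at a given distance from the TSS (x axis, kb, downstream positive) lies in an H3K4me3 island in control (blue) and after Smarcb1 kd (red). The red line is above the blue one at -200 bp (54.4% and 52.8%) and below it at 1800 bp downstream (26.5% and 30.2%).

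Gained islands were short. Their median width was 1400 bp (quartiles 1000 and 2200 bp), their median -log10 p was 26.0, and 818 of the 1006 covered the TSS. They came from 964 distinct islands, since neighbouring and divergent genes can share one. A control island lay within 5 kb of the TSS at 163 of them, which left 843 without one. Lost islands had a median of 2600 bp and a median -log10 p of 22.1, and 83 of the 171 genes had a kd island within 5 kb of the TSS, which left 88.

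Among the 10 genes that led the gained promoters by p-value, B3gnt9 had a kd island of 2000 bp with a -log10 p of 153.3. Cdx1, which encodes a caudal homeodomain factor of posterior patterning, had 1200 bp and 142.1. Ltb4r2 had 1200 bp and 129.2, with the island starting downstream of the TSS. The island of Gm15091 was 6800 bp wide with a -log10 p of 147.7 and ended upstream of the TSS. The other leading genes were Gadd45g (3600 bp), Gdf15 (3800 bp), a stress-induced cytokine gene, Kctd8 (1400 bp), Pwp1 (1000 bp), Gdf1 (4400 bp), a TGF-beta family ligand gene, and Ankrd13d (1200 bp). H3K27me3 islands covered the promoters of 8 of the 10 in control, all but Gm15091 and Gdf15, and Smarca4 peaks lay at 9 of 10, all but Gm15091. Counted over every transcript, Pwp1 was kept.

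The lost promoters were led by genes of multi-copy clusters. Of the 10 leading genes, 7 lay in 2 segments: Zfp980, Zfp534, Zfp600, Rex2 and Zfp981 on chromosome 4, and Gm15319 and 4930467E23Rik on chromosome 8. The other 3 were Csrnp3, with a control island of 3800 bp and a -log10 p of 114.4, Emp1, an epithelial membrane protein gene, with 2600 bp and 52.8, and Tnfaip6, a hyaluronan-binding protein gene, with 1000 bp and 41.0. Csrnp3 was kept when every transcript was counted.

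These segments were examined after their values were seen. The chromosome 4 segment (chr4:145506601-147705600, 2.20 Mb) holds 20 protein-coding genes, mostly zinc finger genes, of which 12 lost, 1 gained (Zfp988) and 6 kept a promoter island. H3K4me3 islands covered 39.9% of it in control and 6.94% after kd. H3K27ac islands did so at 30.9% and 6.60%, H3K27me3 islands at 3.87% and 2.62% and Smarca4 peaks at 2.04% and 1.77%. In the chromosome 8 segment (chr8:19679401-20443000, 0.76 Mb) all 3 protein-coding genes lost the island. H3K4me3 islands covered 71.7% of it in control, the widest at 185400 bp, and none of it after kd. H3K27ac covered 34.5% in control and 1.34% after kd, whereas H3K27me3 covered none in control and 17.2% after kd. H3K4me3 and H3K27ac share the input library of each condition. Both segments are made of near-identical copies: 66.0% and 68.9% of their words of 50 bases occur more than once within the segment, against 8.64% in 1 Mb around Pou5f1. Only uniquely mapped reads were kept by the authors, so values here are uncertain for single genes, and the part of read placement and of the inputs in these differences was not tested. Outside the chromosome 4 segment, 312 of 349 Zfp genes kept their promoter island, 10 gained and 2 lost one.

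The other antibodies were read at the same promoters, as readouts that did not enter the choice of genes. H3K27me3 islands were present at 79.1% of the gained promoters in control (76.5 to 81.5%) and 70.2% after kd (67.3 to 72.9%), more often than at kept promoters (37.4 and 32.9%), lost promoters (79 and 77 of 171) or promoters without an island (26.5 and 19.1%). Smarca4, the ATPase of the BAF complex, had a peak at 87.0% of the gained promoters in control and 87.1% after kd, at 95.1 and 97.5% of the kept, at 46.2 and 43.9% of the lost and at 13.3 and 12.4% of the promoters without an island. Ezh2 peaks lay at 11.9% of the gained promoters in control and 27.8% after kd, and at 11.2 and 19.6% of the kept. H3K27ac, a mark of active promoters and enhancers, was called at 6.86 and 16.7% of the gained and 26.0 and 51.0% of the kept promoters. Lost promoters had it at 21.1% in control and 12.3% after kd. H3K4me3, Ezh2 and H3K27ac libraries of one condition share their input, and Smarca4 and H3K27me3 were processed at a different site. Over all protein-coding promoters the number in an H3K27me3 island was 7659 in control and 6396 after kd, and the number with an Ezh2 peak 1564 and 2770.

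**Figure D4:**
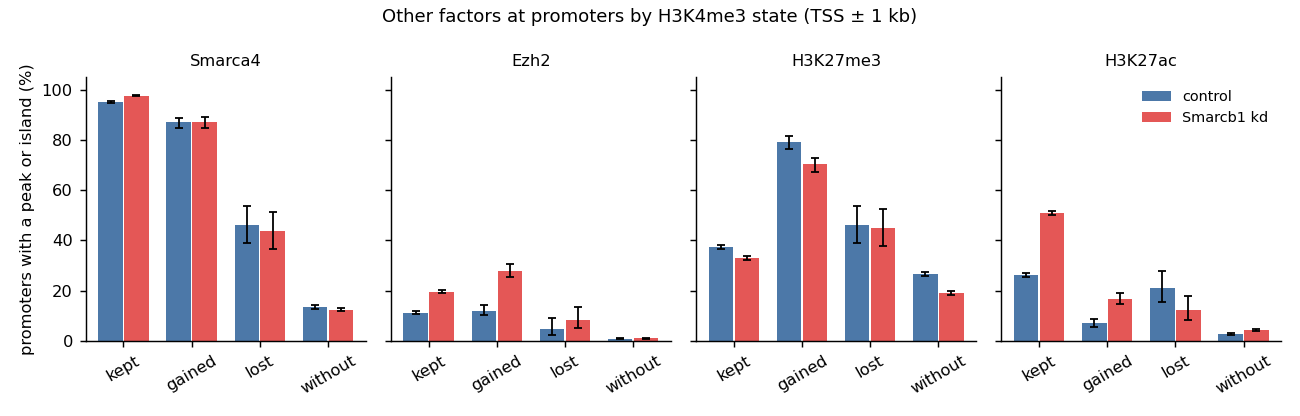
Percent of promoters (y axis, TSS ± 1 kb) with a peak or island of Smarca4, Ezh2, H3K27me3 or H3K27ac in control (blue) and after Smarcb1 kd (red), for promoters that kept (12238), gained (1006) or lost (171) H3K4me3 or were without it (8340), with 95% Wilson intervals. Gained promoters have the highest H3K27me3 share, 79.1% in control and 70.2% after kd.

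CpG content ordered the promoter states. From 250 bases before to 50 bases after the TSS, the median number of CG was 21 at kept, 11 at gained, 5 at lost and 3 at promoters without an island. At least 15 CG were found at 72.0% of the kept (71.2 to 72.8%), 342 of the 1006 gained (31.1 to 37.0%), 8.19% of the lost (4.94 to 13.3%) and 2.29% of the remaining promoters (1.99 to 2.63%). Both features can be combined for the 9346 promoters without a control island, of which 10.8% gained one. The share that gained was 66.5% (62.1 to 70.6%) where the promoter held at least 15 CG and lay in a control H3K27me3 island, and 46.9% (35.2 to 58.9%) with at least 15 CG outside one. With fewer CG it was 19.1% (17.6 to 20.7%) in a control H3K27me3 island and 2.87% (2.48 to 3.31%) elsewhere.

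Gene lists were read against the 4.62% of all protein-coding genes that gained an island. A promoter can gain only where control had no island. Of such promoters 10.8% gained one, and of those that lay in a control H3K27me3 island 26.5% did. The lists differ in both respects, and their shares were not adjusted for either. Hox genes, the homeodomain factors of body axis patterning, had an island after kd alone at 10 of 39 genes (25.6%), kept one at 11, lost one at 2 and had none at 16. The gained genes were Hoxa6, Hoxa7, Hoxa11, Hoxb5, Hoxb7, Hoxb8, Hoxb13, Hoxc5, Hoxc10 and Hoxc11, with islands of 800 bp (Hoxa6) to 2800 bp (Hoxb5, Hoxb8 and Hoxc11). Hoxc11 had the smallest p-value of them (-log10 p of 61.0) and Hoxb13 lay near the authors' cut-off (10.9). Hoxc5 and Hoxc10 share 1 island, and so do the lost genes Hoxd3 and Hoxd4. All 39 Hox promoters lay in H3K27me3 islands in both conditions, and 32 in control and 36 after kd had an Ezh2 peak. With every transcript counted, 15 Hox genes gained and none lost an island, and Hoxc5, Hoxd3 and Hoxd4 were kept.

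Genes of the extracellular matrix, of cell contacts and of excitable membranes were read next. Of 55 collagen and laminin genes 12 gained an island (21.8%) and Col4a6 lost one. Col1a1, the fibrillar collagen of connective tissue, had a kd island of 2400 bp with a -log10 p of 50.8, and Lamb2, a laminin of basement membranes, one of 4200 bp. Col4a3 and Col4a4 share a single island of 1200 bp. Cadherin and integrin genes gained at 6 of 49 (12.2%), among them Cdh13 with 3600 bp, and lost at 1. Clustered protocadherins gained at 9 of 57 (15.8%) and lost at 2 (3.51%, against 0.786% of all genes). Among ion channel genes 15 of 116 (12.9%) gained and 2 lost an island. Gains included the potassium channel genes Kcnj11 (2600 bp) and Kcnn3 (2000 bp) and the calcium channel subunit gene Cacng3 (1000 bp). Among axon guidance genes 6 of 75 gained an island, such as Efna1 with 3200 bp, and 1 lost one.

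Of 38 Wnt, Frizzled and Wnt antagonist genes, 7 gained an island (18.4%). They were the ligand genes Wnt1 (3600 bp), Wnt2 (2000 bp), Wnt3 (2800 bp), Wnt10a (800 bp) and Wnt10b (2800 bp) and the antagonist genes Dkk1 (1600 bp) and Sfrp5 (1800 bp). Wnt16 lost an island of 1800 bp. Among regulators of lineage, Sox10, a neural crest factor, gained an island of 3000 bp, Foxa2, an endoderm factor, one of 3000 bp, and Otx2, a forebrain factor, one of 1400 bp. Otx2 was kept when every transcript was counted. Most genes of these lists kept theirs, with 19 of 25 neural and 11 of 20 mesoderm and endoderm regulators. Of 20 germline genes, which are silenced in most other cells, 4 gained an island (20.0%), the meiotic chromosome genes Sycp3 (1200 bp) and Smc1b (1000 bp), Tex11 (5000 bp) and Taf7l (2200 bp). All 4 promoters lay in a control H3K27me3 island.

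Some markers of differentiated cells were among the gained promoters as well. Of 10 fibroblast genes 3 gained an island, Pdgfra (4200 bp), Thy1 (1000 bp) and Col1a1 (2400 bp), and Col1a2, Col3a1, Pdgfrb, Dcn, Lum, Postn and S100a4 had none in either list. Pdgfra was kept when every transcript was counted. Keratins Krt8 (1800 bp) and Krt18 (1400 bp) of the trophoblast list gained, while Gata3 (1200 bp) and Esx1 (4600 bp) of the same list lost an island and were kept over every transcript. None of 10 neuronal and glial and none of 14 hepatic and epidermal genes gained one. In the former list 5 genes kept an island, and in the latter 1 kept and 1 lost one. The part of other cells in these islands was not tested. Genes of the cleavage-stage embryo (19 genes) had no promoter island in either list, and among 1420 olfactory and vomeronasal receptor genes 11 gained one (0.775%). The authors kept only uniquely mapped reads, and the part of read placement in absent calls at such gene families was not tested.

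Most chromatin regulator genes kept their promoter islands, and the change in width differed between lists. All 12 PRC2 genes kept the island, with a median of 9200 bp in control and 5500 bp after kd. Rbbp7 had 10000 and 6200 bp, Aebp2 10200 and 4800 bp and Eed 13000 and 9000 bp, while Mtf2 had 22000 and 22200 bp. The median log2 ratio over this list was -0.42, against -0.16 over all kept promoters. Past the fold of 1.5, 4 of the 12 were narrower and none wider, against 2320 narrower and 809 wider of all 12238 kept promoters. With 12 genes the list is short, and its share past the fold was not tested against that of all kept promoters. H3K4 methyltransferase and demethylase genes had a median ratio of -0.34, with Kdm5b at 16800 and 8600 bp and Rbbp5 at 16000 and 9400 bp, and Ash2l in the other direction at 4600 and 10400 bp. Of the stem cell BAF subunits 18 of 19 kept the island, with medians of 3800 and 3700 bp and a median log2 ratio of -0.11. Smarcc1 was wider (3200 and 6800 bp), Smarcd1 narrower (8800 and 5400 bp) and Smarca4 itself had 5800 and 5000 bp. The neuronal subunit genes Actl6b and Smarcd3 gained islands of 2000 and 1200 bp, Smarcd3 being kept over every transcript.

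Pluripotency genes had broad islands in both lists, with a median of 9500 bp in control and 8500 bp after kd. Klf5 (22400 and 10400 bp) and Lin28a (12200 and 5000 bp) were narrower past the fold of 1.5, and none was wider past it. These were 2 of the 18 kept genes of the list, against 2320 narrower of all 12238 kept promoters, so the list did not stand out for narrowing past the fold. Nanog had 19400 and 13000 bp, Pou5f1 21600 and 18600 bp, Zfp42 20200 and 17200 bp and Sall4 18000 and 14000 bp. Klf4 (9400 and 9600 bp), Utf1 (9600 and 9600 bp) and Sox2 (11800 and 11200 bp) differed little, and Prdm14 (4000 and 5400 bp) and Dppa4 (6400 and 7400 bp) were wider after kd. The median log2 ratio of the list was -0.15, close to the -0.16 of all kept promoters.

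The remaining lists held at most 3 gained genes each, though not always a low share. Ribosomal protein genes, active in every growing cell, kept it at 76 of 79 and gained at 1, with median widths of 6400 and 5900 bp. LIF and Stat3 signalling genes, which sustain self-renewal, kept it at 8 of 10 and imprinted genes at 12 of 16, and neither list gained or lost one. Glutamate and GABA receptor genes kept it at 27 of 48, gained at 2 and lost at 1. Forkhead genes kept it at 33 of 44 and gained at 3 (6.82%, against 4.62% of all protein-coding genes). Lineage-specifying Sox genes kept it at 9 of 13, gained at 2 (Sox6 and Sox10, 15.4%) and lost at 1 (Sox14). Over every transcript Sox6 was kept, which left 1 gained Sox gene.

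**Figure D5:**
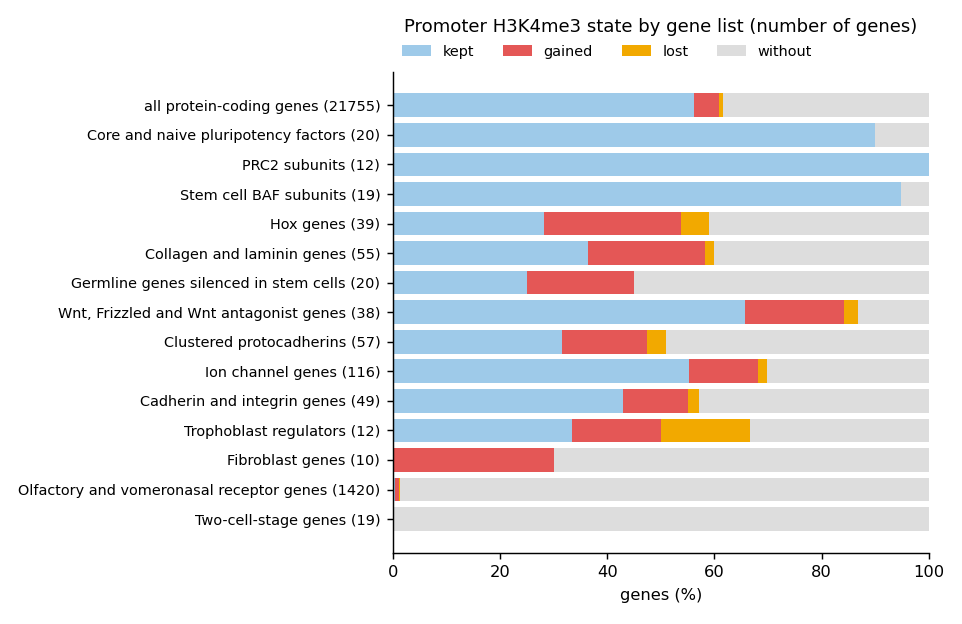
Percent of the genes of each list (x axis; number of genes in brackets) whose promoter kept (blue), gained (red), lost (yellow) or was without (grey) an H3K4me3 island after Smarcb1 kd. The red share is 25.6% for Hox genes and 21.8% for collagen and laminin genes, against 4.62% for all protein-coding genes.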

How the data were processed

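H3K4me3 was measured by ChIP-seq in 1 control and 1 Smarcb1 kd library. According to the methods and the submitters' processing notes, the authors trimmed reads (Trim Galore), aligned them to mm10 (Bowtie2), kept uniquely mapped reads (SAMtools 1.9) and called islands with SICER in windows of 200 bp. Each deposited island carries the authors' SICER p-value, at most 9.92e-11 in control and 9.87e-11 after kd. Deposited Smarca4 and Ezh2 peaks carry the authors' MACS2 score. The methods name input as background and the labels IgG, so the background is not certain. The depth is unknown.

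Overlaps of at least 1 bp, widths and promoter states were computed in Python 3.11.15 with NumPy 2.4.6 and pandas 2.3.3 on GENCODE M21 and the GRCm38 sequence, checked on simulated lists. An island took the first fitting class of TSS, gene body and intergenic, over genes of all biotypes. An island's last base was read as included. Kept, gained, lost and without describe calls, not tests. Members, the 27 gene lists and named genes were chosen with earlier results of these data known. Named genes are list members and those picked by rule. The rule took the 10 gained and 10 lost promoters of smallest p with no island of the other condition within 5 kb. It also took the 10 most widened and 10 most narrowed matched TSS islands and the 10 widest promoter islands per list. Of intergenic islands found in one list alone, it took the 5 leading ones per list. Zinc finger genes and both multi-copy segments were added after values were seen. The printed sequences follow the same ranking, leaving out chromosome 18, with Gadd45g added.

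Alternatives were stricter p-values, lists of equal length, merging, leaving out repeat-masked islands, other TSS windows, transcripts, biotypes, overlaps and folds. The authors' differential calls were not used here.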

Additional observations from a re-analysis of the deposited data

Results flagged for a closer look

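Chromosome Y lay outside the comparison. The H3K4me3 list held 378 islands on it after kd and 257 in control, with median widths of 4100 and 2800 bp. It stood out because it is a signal in data that no comparison used and is higher than in control. Repeats and copied genes fill much of this chromosome, and their part in the difference was not tested.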

How the results depend on the processing

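No paired analysis was possible because each antibody and condition had 1 library, and leaving out a replicate was likewise not possible. All 38 log2 ratios of kd-only to control-only islands or of gained to lost genes were above 0 under the alternatives run. The median log2 width ratio at the TSS ran from -0.16 to -0.14 over 8 alternatives, in gene bodies from -0.14 to 0.15 and between genes from -0.02 to 0.50. Without repeat-masked islands it reversed in gene bodies (-0.14) and between genes (-0.02). The segments on chromosomes 4 and 8, and chromosome 8 as a whole, were left out as alternatives chosen after seeing the data, and neither moved a count past 1.5 times.

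Counts that moved by more than 1.5 times are given as control-only and kd-only islands. With p of at most 1e-20 there were 389 and 1784 in gene bodies and 571 and 3107 between genes, and 271 gene body and 195 intergenic matched islands were narrower past the fold. With lists of equal length there were 434 and 921 at the TSS, 1169 and 1286 in gene bodies and 1890 and 1990 between genes, and 279 genes lost an island. Without repeat-masked islands there were 425 and 1335 in gene bodies and 137 and 523 between genes, 129 gene body and 59 intergenic islands were wider, and 97 intergenic ones narrower. Protein-coding genes alone gave 100 and 913 at the TSS.

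With reciprocal overlap, which drops by construction pairs that differ more than 2-fold in width, 518 gene body and 1140 intergenic islands were wider. A fold of 2 left 629 narrower and 247 wider islands at the TSS, 149 and 725 in gene bodies and 169 and 1704 between genes. All gene biotypes gave 1915 gained and 542 lost genes, and asking for no island of the other condition within 5 kb left 88 lost genes. Fewer islands, genes or matches by construction account for the lower counts of these settings; for the others the cause was not tested.

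Stricter lists of the other factors gave, at gained promoters in control and after kd, 79.0 and 72.9% for Smarca4, 9.24 and 23.9% for Ezh2, 74.1 and 64.9% for H3K27me3 and 4.27 and 11.8% for H3K27ac. At lost promoters they gave 28.7% for Smarca4 after kd and 15.2 and 5.85% for H3K27ac.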
